A study of Mus musculus with 27 samples.

Results

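Amy1 encodes the salivary type of alpha-amylase, and it was followed here in the livers of 27 mice. All probe sets that the array annotation maps to Amy1 were taken, which gave 1 probe set (101058_at) of the 12488 on the array and 1 gene of the 8252 that had a probe set with a single symbol. The mice form 3 groups of 9 that the labels call Dex, Veh and Con, with 1 liver and 1 Affymetrix array per mouse. What the 3 names stand for is not written out in the labels. Not given in the sources used here are the sex, strain and age of the mice, any dose and any time. The RNA was total RNA of whole liver, so fewer cells of a type and less RNA per cell cannot be told apart. Amy1 was chosen from its measured levels in these groups, so those levels are given as a description, without a test.

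Alpha-amylase cuts internal bonds of starch and glycogen. In the mouse, Amy1 is known as the gene behind the amylase of the parotid gland and the liver, while the neighbouring Amy2 genes serve the pancreas. The parotid gland and the liver are known to use separate start sites of the same gene, of which the upstream one is the strong parotid start and the downstream one serves the liver. Liver amylase is secreted into the blood, and glycogen inside hepatocytes is broken down mainly by glycogen phosphorylase.

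In the RefSeq annotation of GRCm38.p6, Amy1 lies on the minus strand of chromosome 3 from 113555952 to 113577750, at one end of an amylase cluster of 430.1 kb with 7 protein-coding genes and 1 pseudogene. RefSeq gives Amy1 2 starts that lie 2988 bases apart. The 250 bases before each start are shown 5′ to 3′ on the gene's strand because the tissues named above use different starts. Capitals mark TATAAA, the core of the TATA box, and AGAACA, 1 arm of the palindromic element that steroid receptors such as the glucocorticoid receptor bind, on either strand (TGTTCT is AGAACA on the other strand). The windows are chr3:113577751-113578000 for the upstream start and chr3:113574763-113575012 for the downstream start.
Amy1 upstream start: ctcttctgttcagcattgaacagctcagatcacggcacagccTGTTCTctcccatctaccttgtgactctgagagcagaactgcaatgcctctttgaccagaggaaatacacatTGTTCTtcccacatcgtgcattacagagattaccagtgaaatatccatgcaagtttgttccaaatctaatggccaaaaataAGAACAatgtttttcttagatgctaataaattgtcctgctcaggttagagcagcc
Amy1 downstream start: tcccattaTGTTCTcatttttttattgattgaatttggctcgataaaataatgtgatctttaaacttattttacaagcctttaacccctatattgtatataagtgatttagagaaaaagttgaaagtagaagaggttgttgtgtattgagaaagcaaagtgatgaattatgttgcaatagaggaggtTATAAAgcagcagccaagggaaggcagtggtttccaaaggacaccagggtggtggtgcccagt
Positions are counted back from the first transcribed base. The upstream window held AGAACA 3 times, on the minus strand at -208 to -203 and at -136 to -131 and on the plus strand at -55 to -50, and no TATAAA. The downstream window held TATAAA on the plus strand at -63 to -58 and AGAACA on the minus strand at -242 to -237. Of all 32851 RefSeq windows of this length, 12.4% held TATAAA and 16.1% held AGAACA on either strand. These matches describe letters in a window and show no binding. The files do not place the probe set on the transcript, so which start the liver RNA came from was not tested.

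Amy1 was above the median of its own array in 27 of 27 livers, and none of its values was at the floor of 2.6 set for the log scale. Its deposited intensity ran from 1147 over a median of 2004 to 2762 in Dex livers, from 888 over 1456 to 1618 in Veh livers, and from 626 over 845 to 1256 in Con livers. The means were 1983 ± 628 in Dex, 1364 ± 228 in Veh and 884 ± 177 in Con (SD, n = 9 each). Dex stood highest and Con lowest, and each group overlapped with both others.

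The Dex mice lay in separate ranges. Dex 1, 2, 3, 4 and 5 had 2721, 2762, 2004, 2393 and 2492, which are the 5 highest values of the 27 mice. Dex 6, 7, 8 and 9 had 1374, 1470, 1147 and 1489, all inside the range of the Veh mice. Veh 1 to 9 had 1526, 1456, 1503, 1618, 1218, 1229, 888, 1536 and 1306, with Veh 7 well below the rest. Con 1 to 9 had 845, 1256, 823, 904, 982, 962, 807, 752 and 626, with Con 2 above the rest. The highest value of a group was 2.41 times the lowest in Dex, 1.82 times in Veh and 2.01 times in Con. The coefficient of variation was 31.7% in Dex and 16.7% in Veh.

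**Figure D1:**
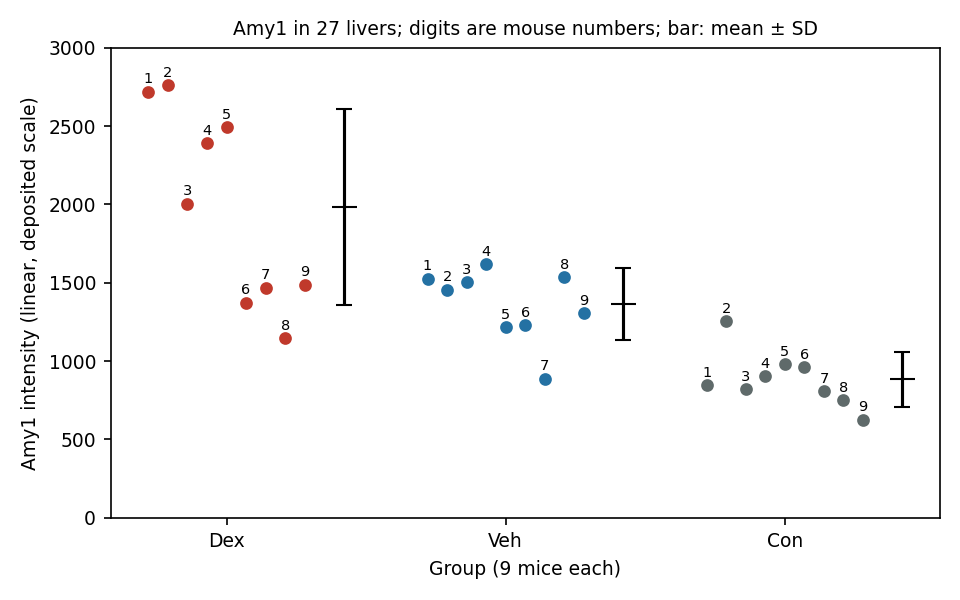
Amy1 intensity (linear, as deposited) in each of 27 livers, with the mouse number above its point and the group mean ± SD beside the points. Dex 1 to 5 sit between 2004 and 2762, above every Veh and Con mouse, while Dex 6 to 9 sit at the level of the Veh mice.

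Between the group means of log2 intensity, Dex minus Veh was 0.49, a 1.41-fold difference (SE 0.17 on the log2 scale). That difference is about the SD of 0.48 among the Dex mice. Of the Dex mice, 7 of 9 were above the Veh median and 5 were above the highest Veh mouse. Veh minus Con was 0.63, a 1.55-fold difference, beyond the SDs of 0.27 in Veh and 0.28 in Con. All 9 Veh mice were above the Con median, and 4 Con mice were above the lowest Veh mouse. Dex minus Con was 1.12, or 2.18-fold, and 8 of 9 Dex mice were above the highest Con mouse. The median difference over all 6784 tested probe sets was -0.03 for Dex minus Veh, -0.19 for Veh minus Con and -0.20 for Dex minus Con. Amy1 lay above 90.8%, 97.5% and 99.4% of the tested probe sets in those 3 differences, which share arrays. It was chosen from its levels in these groups, so these ranks are no separate evidence. Without Dex 1, 2 and 3, a setting chosen after seeing the data, Dex minus Veh was 0.30 and Dex minus Con 0.93. With quantile normalization the differences were 0.44, 0.48 and 0.92, and Amy1 in Dex (1349 to 2376) no longer overlapped with Con (666 to 1253). With the array median in the fit, also chosen after seeing the data, they were 0.55, 0.42 and 0.97, so Veh minus Con moved most.

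The arrays shared 1 trimmed mean (100.1 to 100.2), but their medians ran from 17.6 to 33.3, and Amy1 moved with them. They spanned 18.4 to 33.3 in Dex, 17.6 to 30.7 in Veh and 22.8 to 32.95 in Con. Over the 27 mice, with group means removed, log2 Amy1 was correlated with the log2 array median (r = -0.58, two-sided permutation p = 0.00427, adjusted p = 0.00948 over 4 relations, and rho = -0.56, p = 0.00515, adjusted p = 0.0103). The r was -0.51 without Dex 8 and Veh 6, the mice farthest out on the array median. By group it was -0.80 in Dex, -0.22 in Veh and -0.56 in Con. Of the Dex mice, Dex 1, 2, 4 and 5 combined high Amy1 with low array medians and Dex 3 did not. The share of values at the floor also moved with Amy1 (r = 0.55, permutation adjusted p = 0.00948, rho = 0.55, adjusted p = 0.0103, r = 0.48 without the same 2 mice). The ratio of 3′ to 5′ control signals, which rises as RNA is degraded, was for beta-actin 0.89 ± 0.17 in Dex, 1.27 ± 0.32 in Veh and 0.95 ± 0.24 in Con on the log2 scale (SD, n = 9 each). Its r with Amy1 was 0.0031 (permutation p = 0.987) and that of the Gapdh ratio was 0.28 (p = 0.153, adjusted p = 0.204). The part of the array median in the Amy1 levels was not tested beyond these values.

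**Figure D2:**
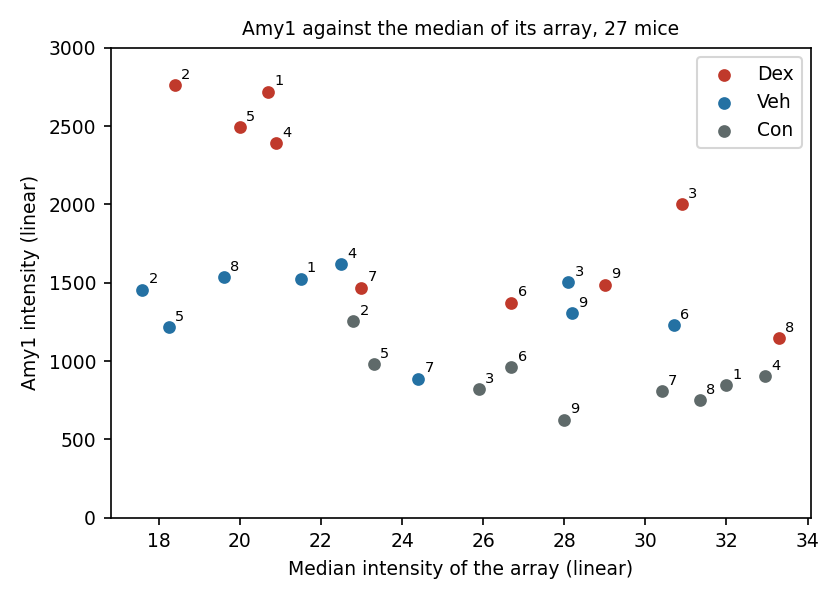
Amy1 intensity against the median intensity of the same array (both linear), 1 numbered point per mouse, coloured by group. Dex 1, 2, 4 and 5 lie at array medians of 18.4 to 20.9 with Amy1 of 2393 and above, and Dex 3 has 2004 at an array median of 30.9.

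The other amylase genes of the cluster, those of the pancreatic Amy2 group, share 2 probe sets that the annotation assigns to several of 6 genes at once. The first ran from 0.6 over 8.1 to 67.9 in Dex, from 0.3 to 12.7 in Veh and from 0.2 to 9.8 in Con. It was at or under the floor in 2 Dex, 6 Veh and 8 Con livers and above its array median only in Dex 5 (67.9) and Dex 3 (32.0), so it was not tested. The second ran from 14.4 over 35.8 to 115.5 in Dex, from 6.8 over 22.1 to 45.8 in Veh and from 14.5 over 22.4 to 29.5 in Con, and it was above its array median in 6 Dex, 4 Veh and 0 Con livers. Its differences did not pass limma's test: Dex minus Veh was 0.70 ± 0.34 (SE, adjusted p = 0.329), Veh minus Con -0.01 ± 0.34 (adjusted p = 0.997) and Dex minus Con 0.69 ± 0.34 (adjusted p = 0.162). The highest value of both probe sets was in Dex 5. Within groups, r with Amy1 was 0.39 for the first and -0.12 for the second. Amy1 and Amy2 coding sequences are known to be alike, and whether the Amy1 probes also bind Amy2 RNA was not tested.

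**Figure D3:**
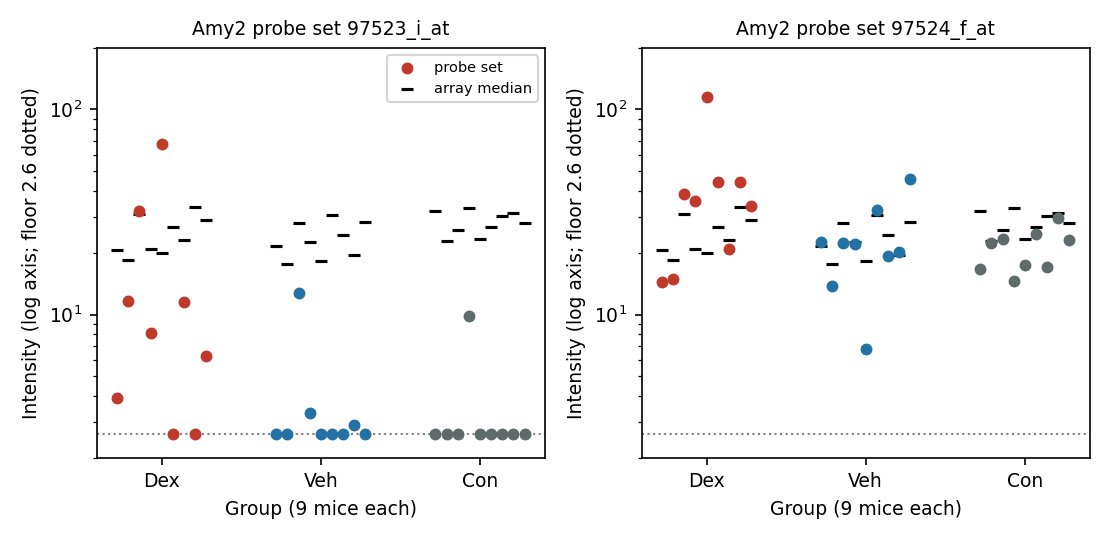
Intensity of the 2 Amy2 probe sets in each liver (log axis, values under the floor of 2.6 drawn at it, short bars mark the array median). Dex 5 stands highest in both panels at 67.9 and 115.5, and most Veh and Con values of the left panel sit at the floor.

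Markers of the other tissues that make amylase were compared with Amy1. Of 17 measured genes of the exocrine pancreas, 8 were bright enough to test. The summed intensity of all 17 ran from 981 to 2003 in Dex, from 882 to 1349 in Veh and from 1080 to 1540 in Con. The highest sum was in Dex 7, a mouse with an Amy1 of 1470. None of the 8 passed limma's test (adjusted p under 0.05 over all 6784 tested probe sets) in any comparison or with Amy1. Over all tested probe sets, 0.265% passed in Dex against Veh, 3.86% in Veh against Con and 16.4% in Dex against Con, while 1029, 1598 and 2138 had an unadjusted p under 0.05. The closest of the 8 was Clps, the colipase, with a Dex minus Con difference of 0.92 ± 0.34 (adjusted p = 0.0617), followed by Cela2a, an elastase, with a Dex minus Veh difference of 0.76 ± 0.22 (adjusted p = 0.0958). The secreted ribonuclease Rnase1 was at or under the floor in 21 of 27 livers, and the trypsinogen Prss2, the lipase-related Pnliprp1 and the zymogen granule protein Sycn had median intensities of 5.0, 3.1 and 3.6. Other probe sets of the list were bright: the elastase Cela1 and the chymotrypsin-like Ctrl had medians of 429 and 234, the phospholipase Pla2g1b ran from 118 to 390, and all of these were above the array median in 27 of 27 livers, and the chymotrypsinogen Ctrb1 had 110.0 and was above it in 26. The pancreatic list was therefore mixed in level. In Dex 5, the mouse with the highest Amy2 signal, Prss2 was 3.8, Pnliprp1 1.6, Sycn 3.6 and Rnase1 0.2, while Cela1 was 534, Pla2g1b 327, Ctrl 218 and Ctrb1 110.0. The part of pancreatic RNA in the amylase values was not tested. Of 14 measured salivary genes, 4 were tested and none passed, with Kng1 closest (slope with Amy1 0.66 ± 0.17, adjusted p = 0.0504). Bpifa2, the parotid secretory protein, had a median of 9.6, and Car6, Pip and Prol1 had medians of 3.3, 3.3 and 3.8. The proline-rich protein Prp2 had a median of 173 and was above the array median in 27 of 27 livers, and the kallikreins Klk1b1 (55.1, in 23 livers) and Klk1b22 (39.6, in 22 livers) were above it in most. The salivary sum (4474 to 11865 in Dex, 7159 to 8798 in Veh, 4735 to 8449 in Con) was mostly Kng1, the kininogen that the liver secretes.

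The genes that varied with Amy1 from mouse to mouse were sought within groups, so that the group differences known beforehand did not enter. In limma's fit of each probe set on group and log2 Amy1, 46 of 6783 probe sets (0.678%) passed an adjusted p of 0.05, of which 30 had a positive slope (0.442%) and 16 a negative one (0.236%), and 1405 had an unadjusted p under 0.05. The mean log2 intensity had a median of 10.54 over the 30 positive ones, 5.80 over the 16 negative ones and 6.11 over all tested. The median r over all tested was -0.16, with a range of -0.74 to 0.78. This count rested on single arrays. Leaving out 1 array gave a count of 1 for Dex 8, 3 for Dex 2, 5 for Dex 9, 6 for Dex 7 or Veh 8, 7 for Veh 1, 10 for Con 6 or Con 7, 12 for Con 1, 13 for Con 3 and 14 for Con 8. The count was 19 with Veh 9 left out, 21 with Con 5, 22 with Dex 1, 27 with Veh 6 and 30 with Con 4, Dex 4 or Dex 6 left out. Larger counts came from leaving out Dex 3 (94), Veh 3 (96), Con 9 (129), Dex 5 (132) and Veh 7 (299). With the array median in the fit 5 probe sets passed, among them Slc29a1 and Cyp2c70, and with quantile normalization 1 did, which has no single symbol.

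The gene most like Amy1 was Slc29a1, an equilibrative nucleoside transporter of the cell membrane. Its intensity ran from 593 over 1326 to 1951 in Dex, from 635 over 894 to 1284 in Veh and from 453 over 629 to 816 in Con. Its lowest mouse was Dex 8, Veh 7 and Con 9 in the 3 groups, which are also the mice with the lowest Amy1. Its r with Amy1 was 0.78 over the 27 mice with group means removed (rho 0.74), 0.90 in Dex, 0.62 in Veh and 0.61 in Con. The slope was 0.93 ± 0.16 log2 units per log2 unit of Amy1 (SE, adjusted p = 0.0132). The call was kept in 26 of 27 fits that left out 1 array. Of 11 other settings, 8 kept it, among them the array median in the fit (adjusted p = 0.0428). The 3 that did not included quantile normalization (adjusted p = 0.160) and a block for the mouse number. A second Slc29a1 probe set had an r of -0.20.

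The next gene was Cps1, which makes carbamoyl phosphate for the urea cycle. It ran from 5851 over 12501 to 17833 in Dex, from 5875 over 6732 to 8894 in Veh and from 4765 over 6010 to 8453 in Con. Dex 1 to 5 stood apart from the other 22 mice in Cps1 as they did in Amy1. Its r was 0.77, and it was 0.88 in Dex, 0.20 in Veh and 0.79 in Con (slope 0.82 ± 0.15, adjusted p = 0.0132). Scp2, a sterol carrier of peroxisomes, had an r of 0.76 (slope 0.91 ± 0.16, adjusted p = 0.0132) and ran from 2174 over 5975 to 6755 in Dex, from 4426 over 5322 to 8102 in Veh and from 3066 over 5463 to 7885 in Con. Its group medians lay close together, while its lowest mice were again Dex 8, Veh 7 and Con 9. A second Scp2 probe set had an r of 0.43 (slope 0.34, adjusted p = 0.214). Cyp2c70, a bile acid hydroxylase of mice, had an r of 0.72 (slope 1.26 ± 0.24, adjusted p = 0.0189), and it was the member of the 10 with the steepest slope. It ran from 616 over 1258 to 2866 in Dex, from 596 over 1557 to 2125 in Veh and from 882 over 1418 to 2151 in Con. Ahcy, which splits S-adenosylhomocysteine, had an r of 0.70, and its 2 other probe sets had 0.71 and 0.25. Fah, the last enzyme of tyrosine breakdown, had an r of 0.70 and missed the threshold (adjusted p = 0.0504).

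The rest of the 10 genes with the highest r were the ribosomal proteins Rps3a1 (0.74, ahead of Cyp2c70) and Rpl8 (0.69), the mitochondrial protease Clpp (0.71, ahead of Ahcy) and Wbp1l (0.69). Of the 10, 9 passed the slope test, and their slopes ran from 0.58 to 1.26. Since the 10 were taken for their r, this count is no separate evidence. Without Dex 8 and Veh 7, the mice whose Amy1 lay farthest from its group mean, the r of the 10 ran from 0.53 (Clpp) to 0.82 (Cps1). The r in Veh mice alone was lower for several, at 0.21 for Ahcy and 0.37 for Rpl8, and the r in Con mice was 0.12 for Rps3a1. With the array median in the fit, 7 of the 9 no longer passed. For Cps1 (slope 0.83, adjusted p = 0.0667), Scp2 (0.94, adjusted p = 0.0568) and Wbp1l (1.04, adjusted p = 0.0568) the slope was no smaller than without it, and for Rpl8 (0.77, adjusted p = 0.142) likewise. For Rps3a1 (0.54, adjusted p = 0.166), Clpp (0.63, adjusted p = 0.236) and Ahcy (0.53, adjusted p = 0.252) it was smaller. With quantile normalization none of the 10 did.

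**Figure D4:**
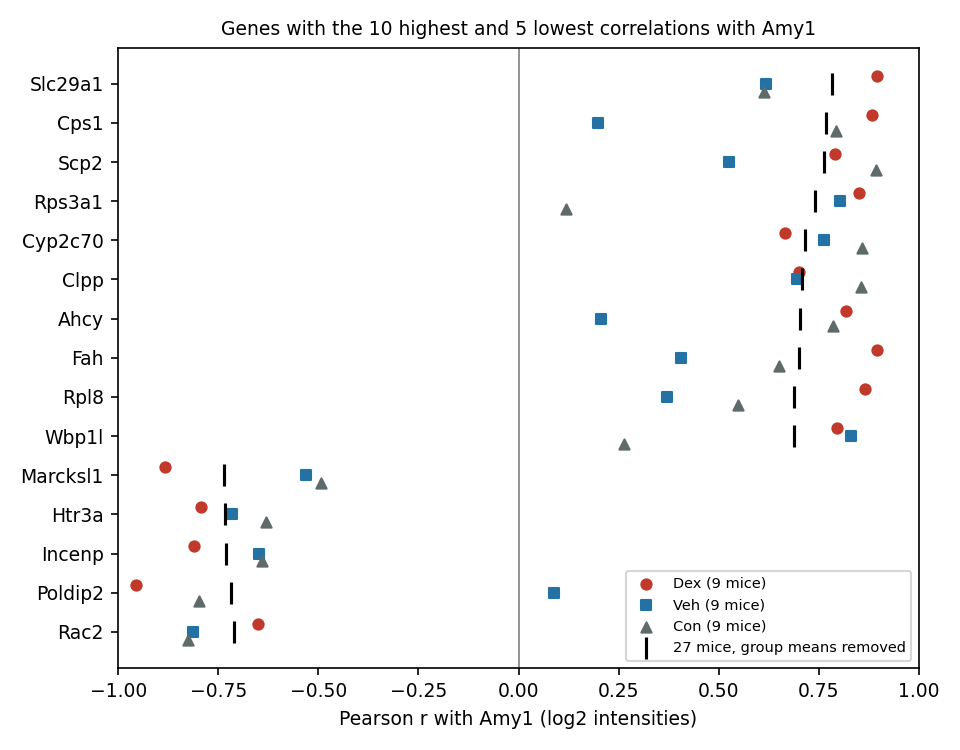
Pearson r with Amy1 (log2 intensities) of the 10 genes with the highest and the 5 with the lowest r, in Dex, Veh and Con (9 mice each) and over 27 mice with group means removed (bar). Slc29a1 has 0.61 or more in every group, whereas Cps1 has 0.88 in Dex and 0.20 in Veh.

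The 5 genes with the lowest r were Marcksl1, an actin-binding relative of MARCKS (-0.74), Htr3a, a subunit of a serotonin-gated channel (-0.73), Incenp of the chromosomal passenger complex (-0.73), Poldip2 (-0.72) and Rac2, a small GTPase of blood cells (-0.71). Marcksl1 ran from 21.5 over 47.1 to 80.1 in Dex, from 35.1 over 53.9 to 71.5 in Veh and from 44.8 over 69.4 to 108.1 in Con. Dex 2 had the highest Amy1 and the lowest Marcksl1, and Veh 7 had the lowest Amy1 and the highest Marcksl1 of its group. The slopes of Marcksl1 (-1.04 ± 0.22, adjusted p = 0.0345), Htr3a (-1.57 ± 0.31, adjusted p = 0.0236), Incenp (-1.43 ± 0.30, adjusted p = 0.0345) and Rac2 (-0.83 ± 0.19, adjusted p = 0.0438) passed, and that of Poldip2 (-0.47 ± 0.13, adjusted p = 0.0647) did not. None of them passed with the array median in the fit or with quantile normalization. A second Incenp probe set had an r of -0.47. Htr3a had median intensities of 41.4 in Dex, 30.5 in Veh and 39.6 in Con, and Incenp had 28.2, 24.1 and 35.9. Both were thus dim, near the array medians of 17.6 to 33.3.

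**Figure D5:**
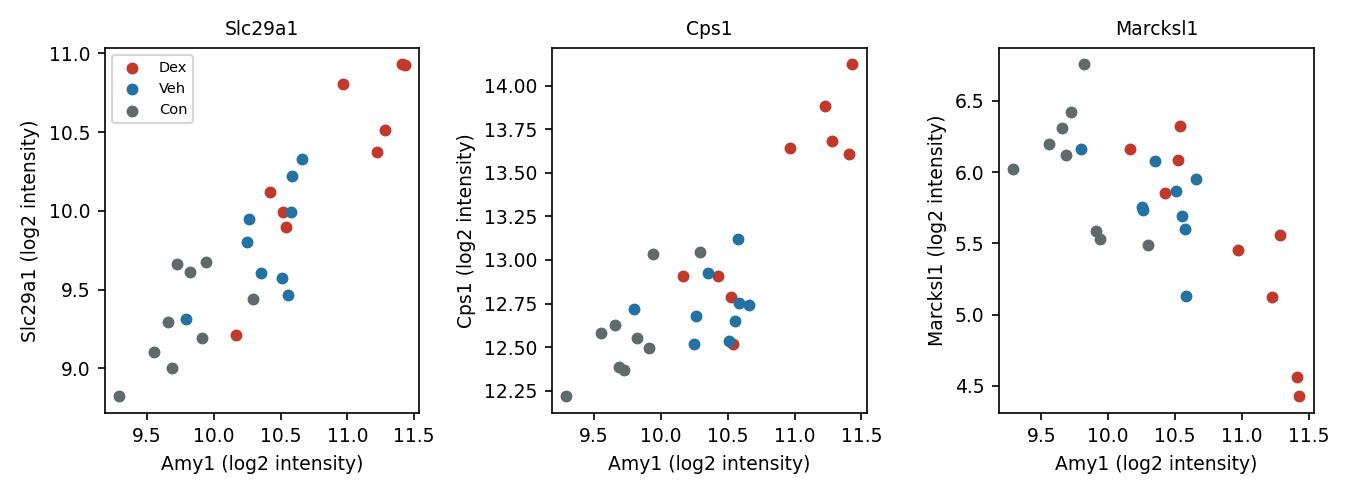
Log2 intensity of Slc29a1, Cps1 and Marcksl1 against that of Amy1, 1 point per mouse, coloured by group. Slc29a1 runs along Amy1 in all 3 groups, the 5 Dex mice with high Amy1 stand apart in Cps1, and Marcksl1 runs the other way.

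With group differences left in, the genes most like Amy1 over the 27 mice were Slc29a1 (r = 0.90), Gnmt (0.88), Cps1 (0.83), Smoc1 (0.83) and Rpl19 (0.82). Gnmt, glycine N-methyltransferase of the methionine cycle, ran from 4347 over 7255 to 11099 in Dex, from 4075 over 4845 to 6218 in Veh and from 3216 over 3615 to 5185 in Con. These r values hold the differences between groups as well as those between mice. In Dex against Con, where 16.4% of the 6784 tested probe sets passed and 3.26% passed as higher, all 5 were higher: Gnmt by 0.95 ± 0.14 (adjusted p = 0.000198), Slc29a1 by 0.99 ± 0.19 (adjusted p = 0.00146), Cps1 by 0.75 ± 0.18 (adjusted p = 0.00606), Smoc1 by 0.69 and Rpl19 by 0.66 (log2). They were taken for following Amy1 across these same groups, so nothing is read from that count. Within groups, Gnmt (adjusted p = 0.0527) and Smoc1 (adjusted p = 0.0504) missed the threshold.

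The hepatocyte markers check the labelled tissue. All 14 measured markers were tested, and their summed intensity ran from 67815 to 145807 in Dex, from 65649 to 117839 in Veh and from 59165 to 104510 in Con. In Dex against Con, where 3.26% of all tested probe sets passed as higher, 3 of the 14 rose: Cps1, the plasma protein Alb by 0.61 ± 0.19 (adjusted p = 0.0276) and the apolipoprotein Apoa1 by 0.67 ± 0.20 (adjusted p = 0.0234). The median of the 14 was 0.23, against -0.20 over all tested. With quantile normalization Alb moved to 0.01 (adjusted p = 0.930) and Cps1 to 0.41 (adjusted p = 0.0543), while Apoa1 still passed at 0.19. None of the 14 passed in Dex against Veh, where 0.0442% of all tested probe sets passed as higher and 0.221% as lower, or in Veh against Con, where 1.19% passed as higher and 2.67% as lower. The slope with Amy1 was positive for 13 of the 14, against 29.6% of all tested probe sets, with a median of 0.44 against -0.22. Only Cps1 passed, and not with the array median in the fit (adjusted p = 0.0667). In Veh mice alone, r with Amy1 was negative for Alb (-0.46), Apoa1 (-0.32), Apoa2 (-0.43), Apob (-0.49) and Ass1 (-0.30). The other markers had a positive r there, up to 0.66 for Ahsg. In Dex mice alone, r was 0.80 for Alb and 0.84 for Apoa1. Many of these markers were bright, with a mean log2 intensity of 14.37 for Alb and 5.99 for the dim Hpd, against a median of 6.11 over all tested. Probe sets that passed with a positive slope were also bright (median 10.54, against 5.80 for negative ones). The markers were not compared with equally bright probe sets.

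Genes that glucocorticoids are known to induce in liver were followed because Dex is also a common short name of a synthetic glucocorticoid, which the labels do not state. Their summed intensity was 78349, 113752, 64554 and 32241 in Dex 1, 2, 3 and 4, and from 15263 to 18818 in Dex 5 to 9. It ran from 11330 to 26663 in Veh and from 10902 to 25351 in Con. Dex 1 to 4 were above every Veh and Con mouse, and Dex 5, with an Amy1 of 2492, was not. In Dex against Con, where 3.26% of all tested probe sets passed as higher, 5 of 23 tested genes rose: the siderophore-binding protein Lcn2 by 5.57 ± 0.97 (adjusted p = 0.000596), the tyrosine aminotransferase Tat by 1.18 ± 0.28 (adjusted p = 0.00705), the tryptophan dioxygenase Tdo2 by 0.70 ± 0.23 (adjusted p = 0.0371), the stress-induced Ddit4 by 1.63 ± 0.56 (adjusted p = 0.0426) and the IGF-binding protein Igfbp1 by 2.39 ± 0.83 (adjusted p = 0.0469). The list median was 0.43, against -0.20 over all tested. With quantile normalization Tat (adjusted p = 0.0505) and Tdo2 (adjusted p = 0.326) no longer passed. With a block for the mouse number, Ddit4 (adjusted p = 0.0708) and Igfbp1 (adjusted p = 0.0682) did not pass limma's test. Igfbp1 had median intensities of 30.7 in Dex, 51.6 in Veh and 20.4 in Con, with 4127.5 in Dex 2. Ddit4 had medians of 37.0, 19.3 and 17.7, with 364.7 in Dex 1. Of 9 Dex mice, 8 were above the Con median in Ddit4 and 7 in Igfbp1. In Dex against Veh, 21 of the 23 were higher, against 46.6% of all tested probe sets, and none passed. The list was known from earlier results of these data to move this way, so its direction is not separate evidence. Within groups the slope with Amy1 was positive for 20 of 23, against 29.6% of all tested, with a median of 0.72. Tat passed (1.13 ± 0.28, adjusted p = 0.0481), but not with the array median in the fit (adjusted p = 0.0755). A probe set of Zbtb16, another gene of the list, was among the 5 that passed with the array median in the fit, and it did not pass without it.

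Few of the genes that handle the substrate of amylase passed the tests. Of 11 tested genes of glycogen metabolism, 2 fell in Dex against Con: Ppp1cb, a catalytic subunit of the phosphatase that acts on glycogen synthase and phosphorylase, by 1.08 ± 0.25 (adjusted p = 0.00472) and Ugp2, which makes the UDP-glucose used for glycogen, by 0.83 ± 0.26 (adjusted p = 0.0289). The list median was -0.23, close to the -0.20 over all tested, and 13.2% of the tested probe sets passed as lower. Ugp2 no longer passed with quantile normalization (adjusted p = 0.0924). None of the 11 passed in the other comparisons or with Amy1. Of 10 tested glycoside hydrolases, 1 fell in Dex against Con, the glucosidase subunit Ganab of the endoplasmic reticulum, by 0.48 ± 0.14 (adjusted p = 0.0219), and it did not pass with quantile normalization (adjusted p = 0.125). None of the 10 followed Amy1 past the threshold. Of 17 tested genes of glycolysis and glucose production, 1 passed in a comparison: the phosphofructokinase Pfkm fell in Veh against Con by 0.53 ± 0.15 (adjusted p = 0.0411), but not with quantile normalization (adjusted p = 0.257). Slc37a4, which carries glucose phosphate into the endoplasmic reticulum for the last step of glucose release, followed Amy1 within groups (slope 1.07 ± 0.23, r = 0.67, adjusted p = 0.0428), though not with the array median in the fit (adjusted p = 0.0996).

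Of 12 tested transcription factors of liver and pancreas, 2 fell in Veh against Con, where 2.67% of all tested probe sets passed as lower: Foxa1, a forkhead factor that opens chromatin at liver genes, by 1.29 ± 0.32 (adjusted p = 0.0281) and the nuclear receptor Hnf4a by 1.16 ± 0.29 (adjusted p = 0.0281). Foxa1 also fell in Dex against Con, by 0.95 ± 0.32 (adjusted p = 0.0427), where 13.2% passed as lower. None of these 3 calls was kept with quantile normalization (adjusted p = 0.0812, 0.0827 and 0.124), and none of the 12 followed Amy1 past the threshold. Pdx1, the pancreatic homeobox factor, was not bright enough to test, with a median of 3.6.

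Markers of other cells in the liver were set beside Amy1 as well. In Dex against Con, where 13.2% of all tested probe sets passed as lower, 3 of 11 tested macrophage markers fell: the mannose receptor Mrc1 by 0.90 ± 0.25 (adjusted p = 0.0163), Cd5l by 0.99 ± 0.28 (adjusted p = 0.0172) and the cathepsin Ctss by 0.95 ± 0.31 (adjusted p = 0.0338). Cd5l (adjusted p = 0.0514) and Ctss (adjusted p = 0.107) no longer passed with quantile normalization. The summed intensity of all 12 measured macrophage markers ran from 643 to 1758 in Dex, from 949 to 3386 in Veh and from 1022 to 2049 in Con. The slopes of the 11 tested ones with Amy1 were all negative, with none past the threshold. Over all tested probe sets, 29.6% had a positive slope. Veh 7, the lowest in Amy1 of its group, had the highest macrophage sum of the series. Of 3 tested red cell genes, Alas2, the heme synthesis enzyme of red cell precursors, fell by 1.97 ± 0.56 (adjusted p = 0.0178), while Dex minus Con was 0.57 ± 0.22 for the globin Hba-a1 (adjusted p = 0.0662) and -0.39 ± 0.56 for the anion exchanger Slc4a1 (adjusted p = 0.666), neither of which passed. Of 9 tested genes of stellate cells and endothelium, the endothelial cadherin Cdh5 fell by 0.63 ± 0.21 (adjusted p = 0.0420), which was not kept with quantile normalization (adjusted p = 0.210). No gene of the bile duct, adipocyte or lymphocyte lists (1, 3 and 5 tested) passed in a comparison or with Amy1. With no filter on dim probe sets, Ctss, Cdh5, Alb, Apoa1, Tdo2, Ddit4, Igfbp1, Pfkm and the Dex against Con call of Foxa1 missed the threshold as well (adjusted p = 0.0542 to 0.0802). The part of these cells in the Amy1 levels was not tested.

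The nearest other genes on chromosome 3 that the array measures lie at 452729 bases or more from Amy1. On the side of higher coordinates these were Col11a1, S1pr1 and Dph5, and on the other side Prpf38b, Fndc7 and Stxbp3. Only Dph5, which takes part in diphthamide synthesis, and Stxbp3, a syntaxin-binding protein, were bright enough to test. Their r with Amy1 within groups was 0.03 and 0.14, and neither slope passed (0.06 ± 0.36, adjusted p = 0.939 for Dph5 and 0.23 ± 0.35, adjusted p = 0.721 for Stxbp3). Dex minus Con was -0.33 ± 0.30 for Dph5 and -0.50 ± 0.28 for Stxbp3, and neither passed (adjusted p = 0.460 and 0.230).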

How the data were processed

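The authors deposited 1 linear intensity per probe set and array for 27 mouse livers. Per the labels, RNA was purified with Trizol and RNeasy, checked on a Bioanalyzer and turned into targets by the usual Affymetrix steps. Not given in the sources used here are the software, the probe summary and the scaling target. Trimmed means (2% at each end) of 100.1 to 100.2 show that the deposited intensity had been scaled per array, and it was used without rescaling. Before taking log2, a floor was set at percentile 10 of the positive values (2.6). A probe set was tested when above its array's median in at least 9 of 27 arrays, which left 6784 of 12488 without the 66 controls. Of the probe sets, 10855 had 1 gene symbol, 396 several and 1237 none. Where a gene had several tested probe sets, the one with the highest mean stood for it. An array has no read depth, and the number of arrays limits the precision.

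Group means, and in a second fit the group plus log2 Amy1, were fitted with limma 3.58.1 in R 4.3.3 (eBayes with its mean trend). P-values were two-sided and adjusted over all tested probe sets by Benjamini-Hochberg, with a threshold of 0.05. The fits were tested on simulated data with independent noise for each probe set. Movement shared between probe sets, such as that with the array median, was not simulated. Technical relations were tested with 100000 permutations within groups. Mice with the same number were not treated as pairs: correlations between them ran from -0.20 to 0.19, and 4 of 27 arrays correlated best with one of their own number. The genes named are the 10 with the highest and the 5 with the lowest r with Amy1 within groups, the 5 with the highest r over 27 mice, members of 15 gene lists past the threshold (at most 3 with the smallest p, or all where the count is 5 or fewer, else the closest) and 3 measured neighbours on each side. Marker genes named only by their level were chosen after their values were seen. Amy1, the rules and the lists were chosen with earlier results of these data known. Promoter windows are from RefSeq (GRCm38.p6), and 10839 probe sets matched its gene table.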

Additional observations from a re-analysis of the deposited data

Results flagged for a closer look

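In 4 of 72 groups of 9 mice examined for Amy1, the Amy2 probe sets and the genes named with Amy1, the mouse at one end stood apart from the rest by more than Dixon's 95% value of 0.493 of the range. Chance alone gives about 1 such group in 20. Scp2 in Dex was lowest in Dex 8, with a log2 intensity of 11.09 against 11.96 in the next mouse. Amy1 in Veh was lowest in Veh 7, with 9.80 against 10.25 in the next mouse. The first Amy2 probe set in Veh was highest in Veh 3, with 3.67 against 1.72, and in Con it was highest in Con 4, with 3.29 against the floor of 1.38 that the other 8 Con mice shared.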

How the results depend on the processing

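The 3 Amy1 differences kept their direction under every alternative run. Leaving out 1 mouse at a time, Dex minus Veh ran from 0.417 to 0.582, Veh minus Con from 0.570 to 0.704 and Dex minus Con from 1.05 to 1.21. Over the other alternatives (quantile normalization, other floors, medians, the replicate block, and 3 added after seeing the data) they ran from 0.299 to 0.550, from 0.416 to 0.784 and from 0.917 to 1.25. The count of 46 probe sets that followed Amy1 depended on the processing. It was 1 with quantile normalization, 8 with no filter on dim probe sets, 135 with a filter for all 27 arrays, 19 with the beta-actin ratio, 12 with the Gapdh ratio and 5 with the array median as a covariate, and 1738 with no group term. After seeing the data, quantile normalization together with the array median was added and gave 3, and leaving out Dex 1, 2 and 3 gave 5. It ran from 1 to 299 when 1 mouse was left out. The replicate block gave 0 in limma's test (402 at an unadjusted p under 0.05). Whether mice of the same number shared handling was not tested, so this 0 stands as a limit of the count of 46. The block left the 3 Amy1 differences as they were. Of the 128 listed genes, 0, 3 and 17 passed in Dex against Veh, Veh against Con and Dex against Con. Over all 6784 tested probe sets, 0.265%, 3.86% and 16.4% passed in the same comparisons, so no excess is read from these counts. With quantile normalization the counts of listed genes were 0, 0 and 10, with no filter 0, 2 and 9, and with the replicate block 0, 4 and 19. The causes were not tested. Low signal limits the Amy2, pancreatic and salivary probe sets.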
